A study of Homo sapiens with 19 samples.

Results

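The libraries described here are the 5 of the 19 mRNA-seq libraries of the series that compare EPZ-6438 with DMSO in cells carrying the control siRNA called NTG, all of them HepG2, an established line from a human liver cancer. They were chosen by treatment and siRNA in the sample labels. The DMSO group has 2 libraries and the EPZ-6438 group has 3. Cells were given 1 μM EPZ-6438 or DMSO, for which the labels also give 1 μM, starting 3 days before transfection with 50 nM of NTG, and were collected 72 h after transfection. Both groups are therefore HepG2 cells that also went through transfection with this single control siRNA, and no untransfected cells enter the comparison. The labels do not say that replicates came from separate cultures, so the p-values measure the spread between these libraries, which may be technical. The same table holds 3 libraries of DMSO with an siRNA against MCRS1 (siMCRS1) and 2 of EPZ-6438 with siMCRS1. These entered the fit as groups of their own and helped to estimate the spread.

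EZH2 is the catalytic subunit of Polycomb repressive complex PRC2, which methylates lysine 27 of histone H3 (H3K27me3), a mark of genes that are kept silent. EPZ-6438, also known as tazemetostat, is a small molecule that competes with the methyl donor S-adenosylmethionine in the catalytic pocket of EZH2. It blocks the methyl transfer and leaves the EZH2 protein in the cell, and the existing mark is lost mainly through cell division and turnover of histones. The question of the comparison is which genes rise or fall when the activity of EZH2 is blocked. H3K27me3 itself was not measured in the files used here.

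Libraries held 29339336 to 47397233 reads, and 1 read was worth 0.710 to 1.08 normalized counts. No pair of replicate libraries agreed within sampling noise (chi-square per degree of freedom 30.2 to 71.3). All 10 hepatocyte markers were among the genes tested, and their summed level was 830854 to 872226 normalized counts with DMSO and 861612 to 1030730 with EPZ-6438. At an unadjusted p under 0.05, 4 of them were higher and 0 lower, against 8.55% and 8.52% of all genes. Their median log2 fold change was 0.37, and 0 passed the adjusted threshold. Of 8 endothelial markers KDR and ERG were at 0 in all 5 libraries, but the list summed to 312 and 349 normalized counts with DMSO and 311 to 476 with EPZ-6438, mostly of TIE1 and PECAM1, and CDH5 had a log2 fold change of 1.78 (limma adjusted p = 0.158). Of 8 erythroid markers HBB was at 0, and the list summed to 25.8 and 31.6 normalized counts with DMSO and 23.7 to 46.9 with EPZ-6438, with HBA1 and HBA2 tested at log2 fold changes of 1.55 and 0.16. Of 8 leukocyte markers 4 were tested and 0 had an unadjusted p under 0.05, where 8.55% of all genes tested were higher and 8.52% lower. CD3E was at 0 in all libraries but 1, where it had 3.23 normalized counts. LYZ, on the leukocyte list, was high in every library, with 46037 to 68408 normalized counts. The summed level of 10 fibroblast and stellate cell markers was 996 and 1508 normalized counts in the DMSO libraries and 1927 to 3134 in the EPZ-6438 libraries. Most of that sum was ACTA2, smooth muscle actin. Of the 5 members tested, 3 were higher and 1 lower at an unadjusted p under 0.05, against 8.55% and 8.52% of all genes. None of them passed the adjusted threshold. Their log2 fold changes were 2.77 for COL3A1, 1.21 for ACTA2, 0.83 for PDGFRB, 0.03 for PDGFRA and -1.57 for COL1A1 (median 0.83). COL1A2, DCN, LUM, DES and THY1 stayed under 10 normalized counts in all 5 libraries. Transcripts of the mitochondrial genome took 6.28% and 6.93% of the reads in the DMSO libraries and 6.28%, 8.66% and 7.97% in the EPZ-6438 libraries, and the part of any of these shifts in the results below was not tested. In bulk RNA, a larger share of cells with a transcript and more transcript per cell cannot be told apart.

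With EPZ-6438, 46 genes rose and 9 fell among 14312 genes tested. The largest fold changes were those of the cadherin gene CDH19, the connexin gene GJA1 and the Nodal antagonist gene LEFTY1, each with 7 or fewer reads in either DMSO library. Lowered genes were well expressed in DMSO and moved less, with SAT1, MT2A and MCL1 among them. The test was limma on log2(normalized count + 1) with a Benjamini-Hochberg adjusted p under 0.05, and because of the added 1 the fold changes of genes with few counts come out too small. The 55 genes made up 0.384% of those tested, with 0.321% higher and 0.0629% lower. Their log2 fold changes ran from 0.49 to 3.71 (median 1.32) among raised genes and from -0.70 to -0.54 (median -0.59) among lowered genes, and 33 raised genes and 0 lowered genes moved by 1 or more. In all 55 genes the 3 EPZ-6438 libraries lay on 1 side of both DMSO libraries, which was the case for 16.4% (above) and 17.1% (below) of all genes tested. At an unadjusted p under 0.05, 1224 genes were higher (8.55%) and 1219 lower (8.52%), so the counts in the 2 directions were close at that level and apart past the adjusted threshold, where 83.6% of the genes were higher. That share depends on the fit. It was 60.1% of 721 genes by DESeq2 on the recovered reads and 42.2% of 1161 genes with the column number as a replicate block in the 8 numbered libraries.

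Many calls depended on single libraries. Without DMSO library 1 the test called 8 genes, 2 of them among the 55, and without DMSO library 3 it called 2, 1 of them among the 55. Without EPZ-6438 library 1, 2 or 3 it called 19, 22 or 4 genes, of which 11, 15 or 2 were among the 55. Where a DMSO library was left out, the other was assumed to vary like the libraries of the other groups. Of the 55 genes, 20 passed in at least 1 of these 5 fits and 1, FSCN1, in all of them, while every gene kept its direction. The kept direction was fixed in advance, since the groups did not overlap in any of the 55 genes. Because of the lost calls, the values in each library are given for the genes below. The genes described are the 20 raised genes with the largest fold changes and the 9 lowered genes, followed by the other raised genes more briefly, and their grouping by known role is for description and was not tested.

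**Figure D1:**
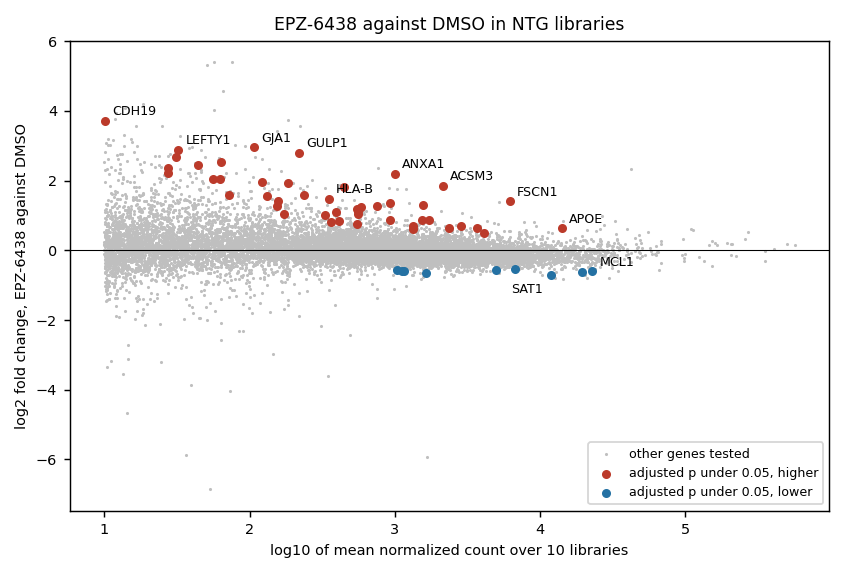
Log2 fold change of EPZ-6438 against DMSO (vertical axis) against the mean normalized count of each gene over the 10 libraries of the table (horizontal axis, log10 scale), for 14312 genes. Red points are the 46 raised genes and blue points the 9 lowered genes, and the raised genes reach log2 fold changes of 3.71 at low means while the lowered genes sit near -0.59 at higher means.

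The raised genes with the largest changes included 2 genes of contact between cells. GJA1 encodes connexin 43, which forms gap junction channels between neighbouring cells, and lies on chromosome 6 from 121435646 to 121449727 (GRCh38.p14). It had 6.70 and 6.68 normalized counts in the DMSO libraries and 80.8, 59.0 and 42.1 in the EPZ-6438 libraries. Every EPZ-6438 library was thus well above both DMSO libraries, each of which held 7 reads of GJA1. The log2 fold change was 2.95 (standard error 0.36, limma adjusted p = 0.0189), and it was 2.72 to 3.19 with each library left out in turn. CDH19, a type II cadherin of adhesion between cells, lies on chromosome 18 from 66501083 to 66604090. It had 1 read in each DMSO library and 30, 17 and 36 reads in the EPZ-6438 libraries. The ratio of the summed reads, scaled for depth, was 26.4, with a counting interval at the 95% level of 7.09 to 222 that covers counting error only. The fitted log2 fold change of 3.71 (limma adjusted p = 0.0298) depends on the added count of 1, and CDH19 stayed above the minimum mean of 10 in 2 of the 5 fits with a library left out. CADM1, an immunoglobulin family adhesion molecule, rose by less, from 3165 and 3292 to 4389, 4497 and 4701 normalized counts, a log2 fold change of 0.49 (limma adjusted p = 0.0445).

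ELFN1 encodes a transmembrane protein with leucine-rich repeats that organises synapses. It had 6.70 and 8.59 normalized counts with DMSO and 31.2, 39.8 and 75.7 with EPZ-6438, and the groups did not overlap (log2 fold change 2.44, standard error 0.44, limma adjusted p = 0.0462). GULP1 is an adaptor protein of the engulfment of dead cells. Its DMSO libraries were apart, at 31.6 and 61.1 normalized counts, and the lowest of its EPZ-6438 libraries (366, 171 and 484) was still above the higher of them. GULP1 had a log2 fold change of 2.80, which ran from 2.33 to 3.26 over the fits with a library left out. SYT7, a calcium sensor of vesicle exocytosis, had 13.4 and 14.3 normalized counts with DMSO and 83.0, 55.4 and 130.4 with EPZ-6438. SYT7 rose by a log2 fold change of 2.52 (limma adjusted p = 0.0298). LDLRAD1, a membrane protein with an LDL receptor class A domain, went from 31.6 and 49.6 to 149, 156 and 201 normalized counts, without overlap between groups (log2 fold change 2.05).

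Secreted proteins among the raised genes included LEFTY1, IL17B and SULF2. LEFTY1, on chromosome 1 from 225886282 to 225889146, encodes a secreted antagonist of Nodal signalling in the TGF-beta family. It had 4.79 and 4.77 normalized counts in the DMSO libraries and 37.7, 35.5 and 54.7 in the EPZ-6438 libraries, a log2 fold change of 2.89 (standard error 0.45, limma adjusted p = 0.0298). Both DMSO libraries held 5 reads of LEFTY1, so its DMSO level rests on few reads. IL17B, a cytokine of the interleukin 17 family, had 10.5 and 10.5 normalized counts with DMSO and 52.8, 59.7 and 61.0 with EPZ-6438, and its replicates lay close together in both groups. The log2 fold change of IL17B was 2.35 (limma adjusted p = 0.0370). SULF2, an extracellular sulfatase that removes sulfate groups from heparan sulfate, had 2351 and 2128 normalized counts with DMSO and 3277, 3855 and 3383 with EPZ-6438 (log2 fold change 0.64). IL17B and LEFTY1 kept log2 fold changes of 2.31 to 2.41 and 2.70 to 3.01 with each library left out, but passed the threshold in 0 of those fits.

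ANXA1, SERPINB2 and CSTA are genes of epithelial and immune cells. ANXA1 encodes annexin A1, a calcium-dependent phospholipid-binding protein that limits inflammation. It had 202 and 219 normalized counts with DMSO and 1461, 639 and 970.3 with EPZ-6438, and the EPZ-6438 libraries spread over a wide range above the DMSO libraries. Its log2 fold change was 2.20 (standard error 0.31, limma adjusted p = 0.0298). SERPINB2 is plasminogen activator inhibitor type 2, and had 66.1 and 57.3 normalized counts with DMSO and 283, 166 and 230.2 with EPZ-6438 (log2 fold change 1.83). CSTA, cystatin A, inhibits cysteine proteases in skin and had 10.5 and 12.4 normalized counts with DMSO and 51.7, 49.0 and 73.6 with EPZ-6438 (log2 fold change 2.23). Neither gene overlapped between the groups. HLA-B, which presents peptides to T cells as the heavy chain of an MHC class I molecule, had 235 and 227 normalized counts with DMSO and 732, 507 and 737 with EPZ-6438. HLA-B rose by 1.49 on the log2 scale (limma adjusted p = 0.0298), and reads can be split between it and near-identical HLA genes, so its level is uncertain.

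ST3GAL5, OSBP2, ACSM3, SCNN1A and TMEM27 act in membrane lipids, fatty acid metabolism or transport, and are placed together here for description only. ST3GAL5, GM3 synthase, which makes the first ganglioside of its series, had 23.0 and 25.8 normalized counts with DMSO and 109.9, 67.5 and 152 with EPZ-6438 (log2 fold change 2.05). OSBP2, an oxysterol-binding protein, had 122 and 118 normalized counts with DMSO and 482, 387 and 534 with EPZ-6438 (log2 fold change 1.94). ACSM3, a mitochondrial acyl-CoA synthetase for medium-chain fatty acids, was among the better expressed raised genes. It had 1274 and 1223 normalized counts with DMSO and 4737, 3863 and 5070.3 with EPZ-6438, a log2 fold change of 1.86 (standard error 0.27, limma adjusted p = 0.0298). SCNN1A, the alpha subunit of the epithelial sodium channel, had 128 and 126 normalized counts with DMSO and 306, 448 and 413 with EPZ-6438. SCNN1A rose by 1.59 (standard error 0.19, limma adjusted p = 0.0189), and leaving out single libraries moved this only between 1.48 and 1.75. TMEM27, also called collectrin, supports amino acid transporters in kidney and insulin secretion in beta cells. It had 10.5 and 10.5 normalized counts with DMSO and 105, 43.3 and 84.1 with EPZ-6438, a log2 fold change of 2.68 (limma adjusted p = 0.0298). None of these genes overlapped between the groups. ACSM3, SCNN1A and TMEM27 share genomic positions with other tested genes (with ACSM1, ERI2 and THUMPD1, with LTBR and with CA5BP1, in that order), and strand use in the counting is not stated, so their levels are uncertain.

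Of the 20 raised genes with the largest changes, 3 are known mainly from testis or muscle. TEX19, a gene of germ cells and early embryos, had 43.1 and 37.2 normalized counts with DMSO and 106, 168 and 103 with EPZ-6438 (log2 fold change 1.59, limma adjusted p = 0.0462). PMFBP1, which joins head and tail of sperm, had 55.5 and 98.3 normalized counts with DMSO and 229, 303 and 355 with EPZ-6438 (log2 fold change 1.96). XIRP2, an actin-binding protein of the junctions between muscle cells, had 42.1 and 46.8 normalized counts with DMSO and 164, 103 and 138 with EPZ-6438 (log2 fold change 1.56). All 3 were higher in every EPZ-6438 library than in either DMSO library. All 3 also had reads in both DMSO libraries.

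Promoters of raised genes of both kinds, rich and poor in the dinucleotide CG, are shown because PRC2 in mammals is known for its preference for CG-rich promoters. Each sequence runs from 250 bases before to 50 bases after the transcript start (RefSeq, GRCh38.p14), in the direction of the gene, with every CG in capitals. ELFN1 is at chr7:1665814-1666113 on the plus strand and ST3GAL5 at chr2:85888941-85889240 on the minus strand. ANXA1 is at chr9:73151615-73151914 and SERPINB2 at chr18:63887455-63887754, both on the plus strand.
ELFN1: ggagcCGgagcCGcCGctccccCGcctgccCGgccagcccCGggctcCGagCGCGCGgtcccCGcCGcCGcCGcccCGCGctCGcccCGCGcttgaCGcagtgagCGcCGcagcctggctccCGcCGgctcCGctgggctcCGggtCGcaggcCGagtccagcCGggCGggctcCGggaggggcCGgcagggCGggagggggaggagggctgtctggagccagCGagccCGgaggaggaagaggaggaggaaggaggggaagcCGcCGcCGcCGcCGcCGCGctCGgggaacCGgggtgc
ST3GAL5: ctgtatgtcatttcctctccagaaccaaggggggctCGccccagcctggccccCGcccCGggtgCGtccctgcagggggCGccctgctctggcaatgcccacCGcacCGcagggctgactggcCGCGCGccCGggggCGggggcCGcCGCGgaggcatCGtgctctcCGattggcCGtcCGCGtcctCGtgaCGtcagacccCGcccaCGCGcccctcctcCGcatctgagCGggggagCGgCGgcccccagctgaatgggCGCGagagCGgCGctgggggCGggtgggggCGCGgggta
ANXA1: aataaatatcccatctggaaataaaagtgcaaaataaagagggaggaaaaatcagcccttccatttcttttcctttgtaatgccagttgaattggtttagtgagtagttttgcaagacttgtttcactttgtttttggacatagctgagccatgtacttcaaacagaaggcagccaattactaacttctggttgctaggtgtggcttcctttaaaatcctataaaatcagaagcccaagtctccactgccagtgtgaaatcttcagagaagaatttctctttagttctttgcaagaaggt
SERPINB2: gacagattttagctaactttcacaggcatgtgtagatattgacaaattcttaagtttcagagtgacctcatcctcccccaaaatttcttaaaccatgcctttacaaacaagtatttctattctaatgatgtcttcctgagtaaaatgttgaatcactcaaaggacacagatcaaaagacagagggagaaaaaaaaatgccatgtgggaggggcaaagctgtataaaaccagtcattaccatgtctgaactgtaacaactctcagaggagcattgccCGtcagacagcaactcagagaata
The ELFN1 and ST3GAL5 windows hold 44 and 36 CG dinucleotides and are 82.0% and 76.3% G or C, whereas the ANXA1 and SERPINB2 windows hold 0 and 1 and are 37.7% and 39.0% G or C. ELFN1 and ST3GAL5 rose by 2.44 and 2.05 on the log2 scale and ANXA1 and SERPINB2 by 2.20 and 1.83, so genes with either kind of promoter rose. The windows shown were extremes of the 20 raised genes with the largest changes. Among those with a promoter, ELFN1 and ST3GAL5 held the most CG, and ANXA1 and SERPINB2 were among the lowest. Promoters were available for 31 of the 46 raised genes. Of these, 13 were CG-rich (41.9%, exact binomial 95% interval 24.5% to 60.9%), against 78.1% of 10691 tested genes. CG-rich meant a ratio of observed to expected CG of at least 0.6 and at least 50% G or C. Raised genes without a promoter are left out.

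**Figure D2:**
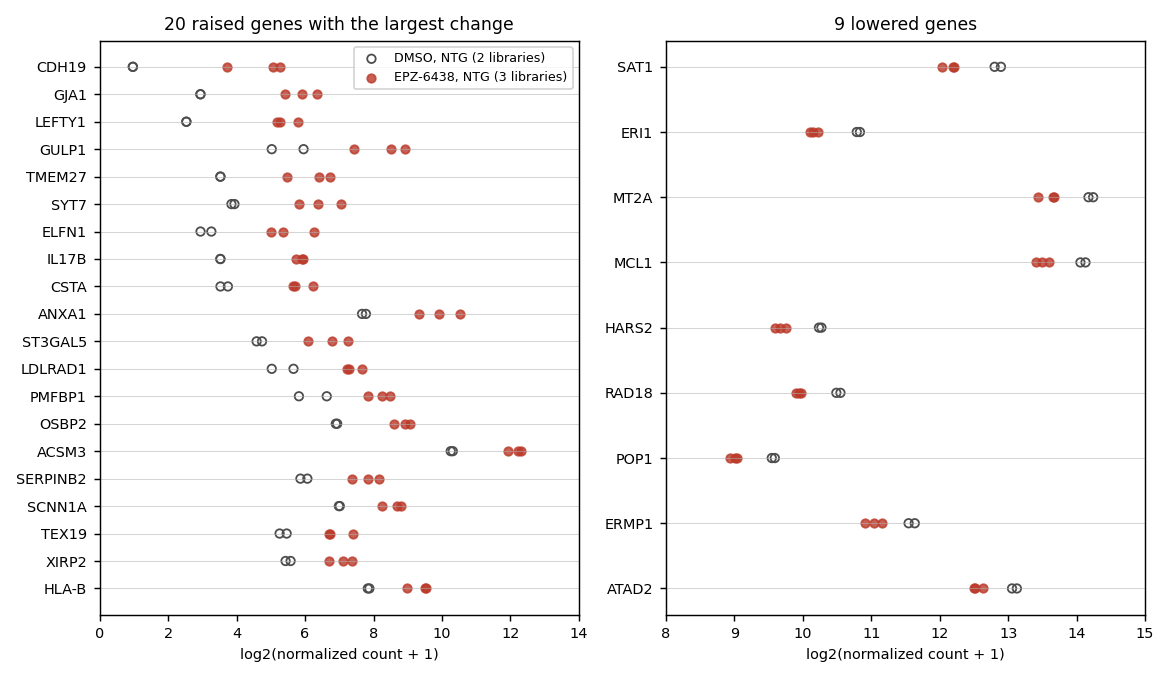
Level of each gene in each library as log2(normalized count + 1) (horizontal axis), for the 20 raised genes with the largest fold changes (left) and the 9 lowered genes (right). Open circles are the 2 DMSO libraries and filled red circles the 3 EPZ-6438 libraries, and in all 29 genes the groups do not overlap.

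The other raised genes had log2 fold changes of 0.49 to 1.42. FSCN1, which encodes fascin, a protein that bundles actin filaments in cell protrusions, had 2711 and 3329.7 normalized counts with DMSO and 7488, 8169.9 and 8219.9 with EPZ-6438. Its log2 fold change of 1.40 (standard error 0.14) had the lowest adjusted p of all genes (limma, 0.00856), and it ran from 1.26 to 1.55 with each library left out. NR5A2, a nuclear receptor that controls bile acid and steroid genes in liver, had 102 and 116 normalized counts with DMSO and 315, 301 and 268 with EPZ-6438 (log2 fold change 1.42, limma adjusted p = 0.0298). OSR1, a zinc finger transcription factor of kidney and limb development, went from 63.2 and 56.3 to 114, 135 and 121 normalized counts (log2 fold change 1.03). The groups did not overlap in any of these 3 genes. BEX1 and BEX3, small adaptor proteins known from neurons and encoded close to each other on the X chromosome, had log2 fold changes of 1.19 and 0.87. BEX1 had 369.6 and 366 normalized counts with DMSO and 892, 791 and 841 with EPZ-6438, with replicates close together (limma adjusted p = 0.0189), and reads shared with other BEX genes make these levels uncertain. APOE, the apolipoprotein of remnant particles, had 9979 and 9345 normalized counts with DMSO and 14790.1, 15057 and 15262 with EPZ-6438, a log2 fold change of 0.64 (limma adjusted p = 0.0298). The read-through transcript APOC4-APOC2 of the same cluster on chromosome 19 rose by 0.88, and its reads overlap those of APOC2. Other enzymes among them included HSD17B2, which inactivates sex steroids (1.35), ETNK2, an ethanolamine kinase of phospholipid synthesis (1.24), CYB5A, cytochrome b5 (0.71), and PRDX5, a peroxiredoxin (0.63, sharing its position with TRMT112). PGC, the precursor of a gastric protease, rose by 1.30, TPH2, the tryptophan hydroxylase of serotonin neurons, by 0.69, and AZGP1, a secreted glycoprotein, by 1.04, all as log2 fold changes. The rest were CSRP2 and CRIP1, small LIM domain proteins (1.26 and 1.10), SLC29A4, a monoamine transporter that shares its position with TNRC18 (1.14), FXYD2, a regulatory subunit of the sodium pump (1.03), PTMS, parathymosin (0.87), CD99L2 (0.84), ASAH2, a neutral ceramidase (0.81), RFLNB, a filamin-binding protein (0.75), and RNF144A, a ubiquitin ligase (0.62).

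The 9 lowered genes all moved by less than 1 on the log2 scale. SAT1, the enzyme that acetylates spermidine and spermine for their removal, had 7135 and 7606 normalized counts with DMSO and 4740.4, 4701 and 4166 with EPZ-6438. It fell by 0.70 on the log2 scale (standard error 0.11, limma adjusted p = 0.0298), with every EPZ-6438 library below both DMSO libraries. MT2A, a metallothionein that binds zinc and copper, had 18457 and 19356 normalized counts with DMSO and 12912, 12994 and 11091 with EPZ-6438, and fell by 0.62 (limma adjusted p = 0.0445). Reads of MT2A may be shared with other metallothionein genes. MCL1, which protects cells from apoptosis, had 17909 and 17013 normalized counts with DMSO and 12333, 11575 and 10816 with EPZ-6438, and fell by 0.59 (limma adjusted p = 0.0462). Leaving out single libraries gave -0.64 to -0.55 as the log2 fold change of MCL1.

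Several lowered genes handle nucleic acids. ERI1, an exonuclease that trims histone mRNA and small RNAs, had 1823 and 1766 normalized counts with DMSO and 1188, 1096 and 1128 with EPZ-6438, and fell by 0.66 (limma adjusted p = 0.0298). RAD18, a ubiquitin ligase of DNA damage tolerance at stalled forks, had 1496 and 1435 normalized counts with DMSO and 999.8, 951 and 979.8 with EPZ-6438, and fell by 0.58. POP1, a subunit of RNase P and RNase MRP, had 746 and 769 with DMSO and 527, 489 and 512 with EPZ-6438, and fell by 0.57. The replicates of these 3 genes lay within a narrow range in each group. HARS2, the mitochondrial histidyl-tRNA synthetase, fell by 0.59, with 1234 and 1203 normalized counts in DMSO and 863, 767 and 807 in EPZ-6438. ATAD2, a bromodomain ATPase of chromatin that is high in dividing cells, fell by 0.54, with 8937 and 8511 normalized counts in DMSO and 5843, 6321 and 5796 in EPZ-6438. ERMP1, a metallopeptidase of the endoplasmic reticulum, fell by 0.56, and its EPZ-6438 libraries were all below its DMSO libraries as well. Of the 9 genes, ERI1 passed the threshold in 1 fit with a library left out and the others in 0.

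The threshold divided a continuous range. The 3 genes just inside it were CD99L2, an adhesion protein related to CD99 with a limma adjusted p of 0.0495, and ELFN1 and TEX19, both at 0.0462. Just outside it were MDK, the growth factor midkine (log2 fold change 0.70), EDN1, endothelin 1 (1.45), EREG, the EGF receptor ligand epiregulin (2.37), and TGFB2 (2.21), all higher with EPZ-6438 at limma adjusted p of 0.0557 to 0.0562. At an adjusted p of 0.0562 as well, DIRAS1, a Ras family GTPase, had a log2 fold change of 2.39 and PRAP1, a secreted protein of gut and liver, 1.16, while CCNE2, the S phase cyclin E2, had -0.71, STK26, a kinase of the Golgi, -0.61, and TPM2, beta tropomyosin, -1.27. EREG had 104 and 216 normalized counts with DMSO and 899, 602 and 879.9 with EPZ-6438, both groups were spread wide but did not overlap. TGFB2 had 1 read in each DMSO library and 6.46 to 9.46 normalized counts with EPZ-6438.

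The transcripts of the drug's target did not pass the threshold. EZH2 had 2118 and 1902 normalized counts with DMSO and 1911, 1677 and 1736 with EPZ-6438, groups that overlap by a single library (log2 fold change -0.18, standard error 0.11, limma adjusted p = 0.454). Its paralog EZH1, the other catalytic subunit, had 506 and 574 and 504, 522 and 589 normalized counts (log2 fold change -0.00). Among the core subunits that EZH2 needs for activity, SUZ12 had 3947 and 3971 with DMSO and 3522, 3325 and 3370.4 with EPZ-6438 (log2 fold change -0.22) and EED had 1043 and 960.1 and 966, 659 and 761 (-0.35). The histone-binding subunits RBBP4 and RBBP7 had log2 fold changes of -0.26 and -0.15. The accessory subunits ran from -0.34 for PHF19 and -0.33 for MTF2 through -0.12 for AEBP2, -0.06 for PHF1 and 0.13 for JARID2 to 0.26 for C17orf96. Of these 12 genes 0 passed the threshold, with the lowest limma adjusted p at 0.169 for RBBP4, and 3 were lower at an unadjusted p under 0.05 (SUZ12, RBBP4 and MTF2), as were 8.52% of all genes. Their median log2 fold change was -0.16, against -0.03 over all genes tested.

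Most HOX genes, a known class of PRC2 targets, had too few counts to be tested. Of these 39 homeobox genes of body axis patterning, 8 had enough counts to be tested and 7 had no read in any of the 5 libraries. None of the 8 passed the threshold, and 3 were higher at an unadjusted p under 0.05, where 8.55% of all genes were. HOXA3 had 535 and 487 normalized counts with DMSO and 589, 806 and 714 with EPZ-6438 (log2 fold change 0.45), HOXD1 had 267 and 204 and 339, 349.5 and 392 (0.62), and HOXA4 had 141 and 129 and 137, 216 and 132 (0.23). HOXA3 and HOXD1 were higher in every EPZ-6438 library, as were 16.4% of all genes tested, while HOXA4 overlapped. Of 128 developmental transcription factors, 53 were tested and 0 passed. At an unadjusted p under 0.05, 8 were higher and 3 lower, against 8.55% and 8.52% of all genes. Their median log2 fold change was 0.09. The best expressed of them, SOX4, SOX9, PROX1 and TBX3, had log2 fold changes of -0.53, 0.21, 0.02 and 0.03. The count filter used the mean over all libraries, so a gene with reads in EPZ-6438 only could be tested where a gene with none could not, and the counts of members tested are not support for a direction.

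CDKN2A, the cell cycle inhibitor locus that Polycomb is known to repress, did not pass the threshold. It had 137 and 184 normalized counts with DMSO and 700.3, 458 and 619 with EPZ-6438, without overlap, a log2 fold change of 1.87 (standard error 0.43, limma adjusted p = 0.0861), and it is named here after its values were seen. CDKN1A, the inhibitor p21, overlapped between the groups, with 6494 and 6901 normalized counts in DMSO and 5879, 8335 and 5884 in EPZ-6438. Among the other cell cycle inhibitors, CDKN1B, CDKN2B and CDKN2C had log2 fold changes of -0.04, 0.28 and 0.22. Of 20 PRC1 subunits, 0 passed the threshold, and 4 demethylases and acetyltransferases of H3K27 had log2 fold changes of -0.14 to 0.17, including -0.14 for KDM6A and 0.02 for EP300. Germline and cancer-testis genes gave 0 at an unadjusted p under 0.05 in either direction among 5 tested of 42 listed, with SYCP3 at 0.16. Of all genes tested, 8.55% were higher and 8.52% lower at that level.

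Ligands, receptors and adhesion genes held 3 of the 8 list members that passed, namely GJA1 of the connexins, CDH19 of the cadherins and protocadherins and LEFTY1 of the BMP and TGF-beta pathway. In each list the called gene stood beyond the other members. At an unadjusted p under 0.05, 8.55% of all genes tested were higher and 8.52% lower. Of 7 connexins tested, 2 were higher at that level, the second being GJD3 with 205 and 213 normalized counts in DMSO and 293, 294 and 262 in EPZ-6438, while GJB1, the liver connexin 32, had a log2 fold change of 0.49. Of 15 cadherins and protocadherins, 5 were higher and 0 lower (median 0.61). CDH19 reached the minimum mean of 10 only through its EPZ-6438 libraries with NTG (mean over the 10 libraries 10.1). The count and median of this list are therefore not support for a direction. CDH2, N-cadherin, had 3943 and 4680.1 normalized counts with DMSO and 3489.6, 4978 and 3875 with EPZ-6438, and CDH1, E-cadherin, 623 and 927 and 685, 2275 and 1053, so neither of the classical cadherins separated the groups. Of 41 genes of the BMP and TGF-beta pathway, 10 were higher and 2 lower, with TGFBR2, a TGF-beta receptor, at a log2 fold change of -0.13. Of 23 Wnt ligands, receptors and inhibitors, 8 were higher and 1 lower, and the secreted inhibitor DKK1 had 11199 and 9456 normalized counts with DMSO and 17242, 13419.9 and 13898 with EPZ-6438. Of 15 Wnt and beta-catenin targets, 5 were higher and 0 lower. NOTUM, a secreted enzyme that inactivates Wnt ligands, had 10494 and 8985 normalized counts with DMSO and 18829, 16696 and 16253 with EPZ-6438 (log2 fold change 0.83, limma adjusted p = 0.0625).

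More genes of the liver programme were higher than lower with EPZ-6438, but few passed the threshold. Of 58 secreted proteins of hepatocytes tested, 1 passed (APOE), 21 were higher and 0 lower at an unadjusted p under 0.05, against 8.55% and 8.52% of all genes, and the median log2 fold change was 0.43. SERPINA1, alpha-1 antitrypsin, had 102485 and 82897 normalized counts with DMSO and 124171, 165464 and 129750.0 with EPZ-6438 (log2 fold change 0.59), whereas ALB, albumin, had 230631 and 172869 and 199543, 174557 and 162036 (-0.17), APOB 424049 and 476550.0 and 389888, 557095 and 596123 (0.17), and the fetal protein AFP 229431 and 144918 and 207775, 145111 and 156249 (-0.12). The groups of ALB, APOB and AFP overlapped, and the DMSO libraries of ALB and AFP differed from each other by more than the group means did. Of 26 hepatocyte transcription factors, NR5A2 passed, 6 were higher and 0 lower (median 0.18), and HNF4A, a central factor of hepatocyte identity, had a log2 fold change of 0.08. Of 44 genes of xenobiotic and bile acid metabolism, 0 passed, 14 were higher and 2 lower (median 0.42). ABCC2, the canalicular export pump, was 1 of the 2 lower genes, with 13584 and 18937 normalized counts in DMSO and 10549.6, 9984 and 14826 in EPZ-6438, which overlap. Of 24 genes of cholesterol synthesis and uptake, 6 were higher and 0 lower, with log2 fold changes of 0.15 for HMGCS1 and 0.11 for CYP51A1.

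MHC class I and interferon genes gave 1 called gene, HLA-B. Of 19 MHC class I presentation genes, 6 were higher and 0 lower at an unadjusted p under 0.05, against 8.55% and 8.52% of all genes (median 0.24), while B2M, the shared light chain, had 8479.8 and 8437 normalized counts with DMSO and 9595, 7918 and 8166 with EPZ-6438. Of 24 interferon-stimulated genes, 0 passed, 6 were higher and 1 lower (median 0.33). OAS3, a sensor of double-stranded RNA, had 2294 and 2242 normalized counts with DMSO and 2145, 2833 and 2335 with EPZ-6438, a log2 fold change of 0.09. Neither B2M nor OAS3 was higher in all EPZ-6438 libraries. All EPZ-6438 libraries lay above both DMSO libraries in 12 MHC class I genes and below them in 1. For the interferon-stimulated genes these counts were 14 and 2. Of all genes tested, 16.4% lay above and 17.1% below in this way. CD74, the invariant chain of MHC class II, had 1454 and 1352 with DMSO and 2055, 2605 and 1986 with EPZ-6438 (log2 fold change 0.65, limma adjusted p = 0.170), without overlap. Among 7 metallothioneins tested, MT2A passed, 0 were higher and 2 lower at an unadjusted p under 0.05, with MT1E at -0.33 and MT1X at 0.04. Of 14 neuronal and neuroendocrine genes, BEX1 passed, and ENO2, neuronal enolase, had a log2 fold change of -0.46.

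Among genes of growth and of the cell cycle more were lower than higher with EPZ-6438, and none of the genes on these lists passed the threshold. Of 40 DNA replication and S phase genes, 0 were higher and 13 lower at an unadjusted p under 0.05, against 8.55% and 8.52% of all genes (median -0.19). PCNA, the sliding clamp of replication, had 19405 and 16573 normalized counts with DMSO and 16683, 12444 and 12002 with EPZ-6438 (log2 fold change -0.40), and the groups overlapped in 1 library. MCM3 and MCM4, subunits of the replicative helicase, had log2 fold changes of -0.41 and -0.35, and RRM2, a subunit of ribonucleotide reductase, -0.29. Of 40 mitosis genes, 0 were higher and 10 lower (median -0.17), although the best expressed, TOP2A, TPX2, CENPF and MKI67, had log2 fold changes of only -0.05, -0.16, -0.17 and -0.02. Of 31 AP-1 and immediate early genes, 0 were higher and 10 lower (median -0.30). PHLDA1, an early response gene, had 6088 and 7008 normalized counts with DMSO and 3871, 4437 and 3801 with EPZ-6438 (log2 fold change -0.70, limma adjusted p = 0.0625), KLF6 had a log2 fold change of -0.49, and MYC had 0.00. Of 23 YAP and TEAD targets, 3 were higher and 7 lower (median -0.25), with ANKRD1 at 7786 and 10201 normalized counts in DMSO and 4942, 6192 and 5312 in EPZ-6438. Of 31 genes of glycolysis and the hypoxia response, 0 were higher and 3 lower (median -0.17), and of 25 p53 targets 3 were higher and 3 lower.

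The remaining lists held no called gene. Of 44 collagens, laminins and integrins, 7 were higher and 6 lower at an unadjusted p under 0.05, where 8.55% of all genes were higher and 8.52% lower, with the integrin subunits ITGB1 and ITGA2 at log2 fold changes of -0.32 and -0.80. Of 19 mesenchymal genes 6 were higher and 1 lower, and of 18 epithelial genes 1 was higher and 0 lower, with FN1, fibronectin, at -0.29 and KRT8, keratin 8, at -0.09. Of 14 imprinted genes 3 were higher and 0 lower, and PEG10 had 56138 and 58603 normalized counts with DMSO and 33419, 53795 and 47934 with EPZ-6438. FGF23, a hormone of phosphate balance among 11 FGF genes tested, had 27795 and 28924 normalized counts with DMSO and 33989, 44079 and 39236 with EPZ-6438 (log2 fold change 0.46, limma adjusted p = 0.113). Of 31 genes of fatty acid synthesis and oxidation 4 were higher and 1 lower, of 25 inflammatory genes 4 and 4, of 23 NRF2 targets 0 and 4, of 28 stress response genes 0 and 3, of 15 oncofetal liver genes 1 and 3, of 13 retinoic acid genes 1 and 2, and of 5 MHC class II genes 1 and 0. Examples of these were SCD (0.22), IL1R1 (0.30), FTL (0.15), HSPA5 (-0.06), GPC3 (0.18) and ALDH1A1 (-0.05), as log2 fold changes.

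**Figure D3:**
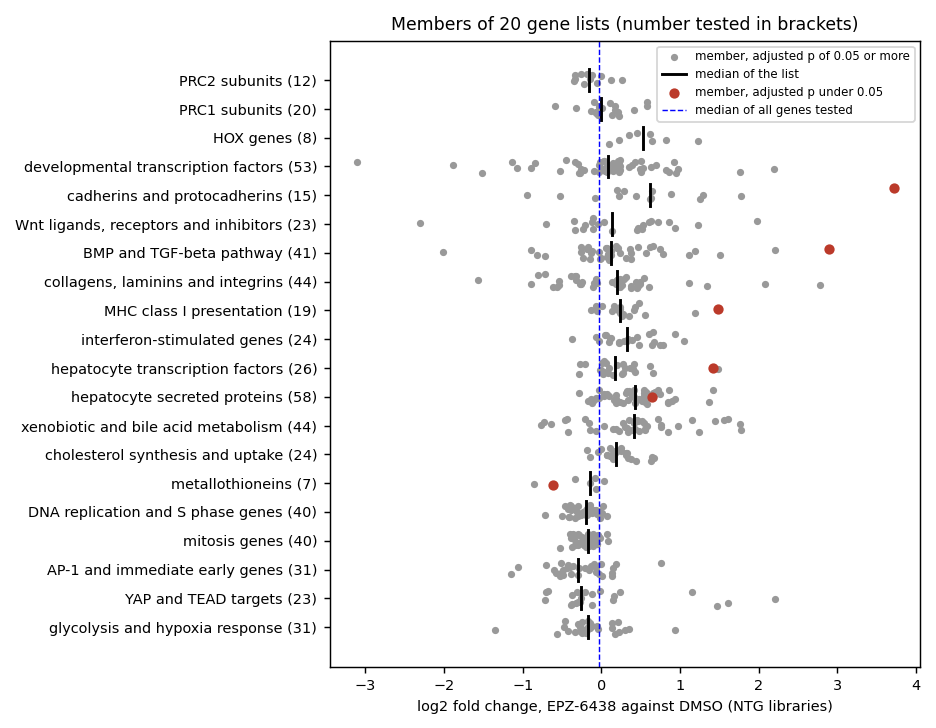
Log2 fold change of EPZ-6438 against DMSO (horizontal axis) for the tested members of 20 gene lists (vertical axis, number tested in brackets). Grey points are members that did not pass the threshold, red points members that did, black bars the median of each list and the dashed line the median of all genes, -0.03. Medians reach 0.61 in the cadherins and -0.30 in the AP-1 and immediate early genes, and no list holds more than 1 red point. The filter on the mean included the EPZ-6438 libraries, so the medians are not support for a direction.

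The raised genes were spread over low and high levels. Levels were taken from the NTG libraries of the other experiment of the series, which were not used in choosing the genes, as normalized counts per kilobase of the canonical transcript (GENCODE). On that scale 28 of the 45 raised genes with a known length (62.2%) lay below the median of all genes, and their median percentile was 33.3. GJA1, CDH19 and LEFTY1 lay at percentiles 1.29, 0.518 and 3.04, whereas APOE and APOC4-APOC2 lay at 99.2 and 96.5. The 9 lowered genes had a median percentile of 70.8, and 2 of them lay below the median. In these counts per kilobase, MT2A and SAT1 were at percentiles 99.8 and 98.4 and RAD18 at 40.5. For genes near 0 in DMSO a fall could not have been seen at this depth, since 3 reads, taken as the floor, were worth 2.13 to 3.23 normalized counts.

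Transcript starts of the raised genes were of both kinds. A start was called CG-rich where the first 300 bases of the canonical transcript had a ratio of observed to expected CG of at least 0.6 and at least 50% G or C. Of 45 raised genes with a transcript, 20 were CG-rich (44.4%, exact binomial 95% interval 29.6% to 60.0%), against 63.7% of 13696 tested genes with one. Genes below the median count of the other experiment's NTG libraries had a share of 54.7%. The raised genes among them had 43.8% (14 of 32, exact binomial 95% interval 26.4% to 62.3%). Genes at or above that median had a share of 72.1%. The raised genes among those had 46.2% (6 of 13, exact binomial 95% interval 19.2% to 74.9%). Of the 9 lowered genes 8 were CG-rich (88.9%, exact binomial 95% interval 51.8% to 99.7%), the exception being POP1. SYT7, OSBP2, GULP1 and FSCN1 were among the raised genes with CG-rich starts, and XIRP2, TMEM27, HSD17B2 and TEX19 among those with the lowest ratios (0.0573 to 0.125). The promoter windows did not always give the same class. OSBP2, BEX3 and RNF144A were CG-rich at the transcript start but not in the promoter window (ratios there 0.29, 0.31 and 0.38). CSRP2 and CD99L2 were CG-rich only in the promoter window (0.77 and 0.90). These shares are descriptions over the called genes and depend on which genes were called.

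**Figure D4:**
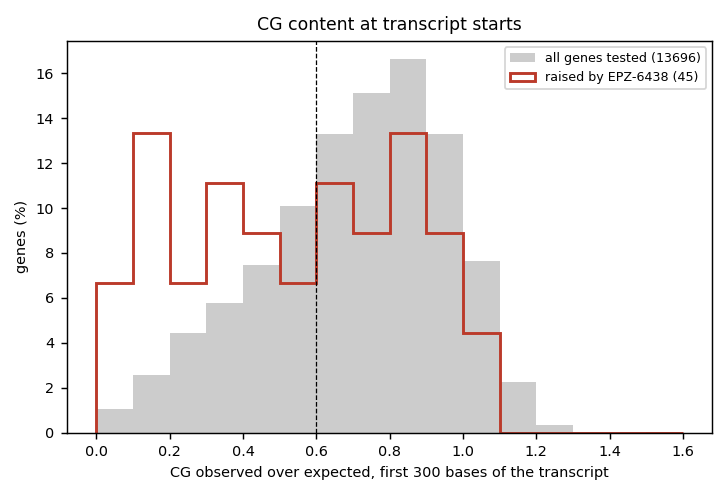
Share of genes (vertical axis, percent) by the ratio of observed to expected CG in the first 300 bases of the transcript (horizontal axis, bins of width 0.1). The grey area is all 13696 tested genes with a transcript and the red line the 45 raised genes, and the dashed line marks 0.6. Of the raised genes 44.4% and of all genes 63.7% were CG-rich by this ratio and the G or C content.

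Genes next to the raised genes were above 0 about as often as all genes. Within 100 kb, 36 of the 46 raised genes had 59 tested neighbours that did not overlap them, 27 of which (45.8%) had a log2 fold change above 0, against 46.0% of all genes tested. The median log2 fold change of the neighbours was -0.00 and none passed the threshold. PCYOX1L, next to IL17B, had a log2 fold change of 1.23 (limma adjusted p = 0.0684), and CMPK2, near RNF144A, had 1.44 (limma adjusted p = 0.115). These were named after their values were seen. For the 9 lowered genes, 6 of 16 neighbours (37.5%) were above 0.

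The siMCRS1 libraries share none of their libraries with the NTG comparison but entered the same filter and the same estimate of spread, so their effects are set beside it. Between EPZ-6438 and DMSO in siMCRS1 cells 13 genes passed the threshold (0.0908% of those tested), 8 of which were among the 55. Of the 46 raised genes 45 were above 0 with siMCRS1 (median log2 fold change 0.78), and all 9 lowered genes were below 0 (median -0.19). The median over all genes tested was -0.02 with siMCRS1. GJA1 and SERPINB2 had larger log2 fold changes there, 3.87 and 2.19, than with NTG, 2.95 and 1.83. LEFTY1 and IL17B had 2.88 and 2.35, close to their values with NTG. SCNN1A, XIRP2, BEX1 and OSR1 had 1.61, 2.05, 1.17 and 1.12, and passed the threshold there as well. CDH19, ELFN1, LDLRAD1 and FSCN1 had smaller values with siMCRS1, 0.44, 0.56, 0.32 and 0.49. With siMCRS1, CDH19 averaged 2.91 normalized counts with DMSO and 4.18 with EPZ-6438, near the floor of 3 reads, and LDLRAD1 6.45 and 8.35. The DMSO means of ELFN1 and FSCN1 were 46.05 and 5514 with siMCRS1, against 7.65 and 3021 with NTG. The part of these levels in the smaller values was not tested. AC009133.22, a gene symbol without a RefSeq match, rose with NTG (618 and 538 normalized counts with DMSO and 1222, 1618 and 1369 with EPZ-6438, log2 fold change 1.27) and had -0.15 with siMCRS1. The difference between the 2 backgrounds, tested as an interaction in limma, passed for 0 of 14312 genes, with 336 (2.35%) at an unadjusted p under 0.05. By DESeq2 on the recovered reads it passed for 5 genes. Of the 55 genes 20 had an unadjusted interaction p under 0.05, a share raised by the choice of genes on the NTG effect, and the lowest adjusted p was 0.353 for AC009133.22. Of the lowered genes MT2A had -0.70 with siMCRS1 and passed there, and SAT1 and MCL1 had -0.51 and -0.30.

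**Figure D5:**
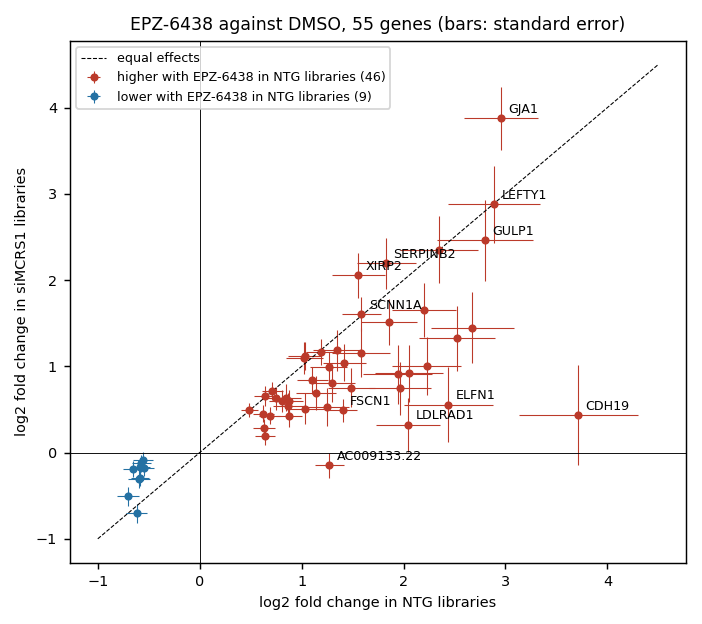
Log2 fold change of EPZ-6438 against DMSO with NTG (horizontal axis) and with siMCRS1 (vertical axis) for the 55 genes, with bars for the standard error of each. Red points are raised and blue points lowered genes with NTG, and the dashed line marks equal effects. GJA1 lies highest, at 2.95 and 3.87, CDH19 far below the line at 3.71 and 0.44, and AC009133.22 below 0 with siMCRS1. CDH19 was near the floor of 3 reads with siMCRS1.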

How the data were processed

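HepG2 mRNA was sequenced from stranded Kapa libraries. The authors deposited 2 tables, 1 per experiment, of a normalized signal for 34825 gene symbols, in which the counts of a library share 1 divisor. The submitters' processing notes name kallisto, DESeq2 and the build GRCh38, and their roles and versions are not given in the sources used here. Division by the smallest step of each library gave whole numbers for 100% of the values (tolerance 0.001), called reads here, although rounded estimates would look the same. Whether counting used the strand is not stated. Most columns carry numbers where the labels carry letters, so columns were assigned to groups only.

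The 14312 genes whose normalized count averaged 10 or more across the 10 libraries of the drug table were tested as log2(value + 1) with limma 3.58.1 in R 4.3.3 (eBayes with a trend, 4 groups in 1 fit) and Benjamini-Hochberg adjustment. The script was tested on simulated data. A level of 3 reads was taken as the floor, and intervals cover counting error only. The named genes are the 20 raised genes with the largest fold changes, all lowered genes, members of gene lists past the threshold, up to 4 further members of each list with the highest means, and all PRC2 subunits. Some genes that this rule names are not reported here. The 44 lists and these libraries were chosen with earlier results of these data known. Other genes named were chosen after their values were seen. Exact binomial intervals came from scipy 1.17.1. Promoters and positions are from RefSeq (GRCh38.p14), matched by symbol, and transcripts from GENCODE. Alternatives changed 1 choice at a time: pseudocounts of 0.1 and 5, other filters, scaling, each library left out, edgeR 4.0.16 and DESeq2 1.42.0 on the recovered reads. The replicate block changed 2, since it was fitted on the 8 numbered libraries. The level per length of transcript was added after the data were seen.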

Additional observations from a re-analysis of the deposited data

How the results depend on the processing

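With a library left out, the direction of the 55 genes was fixed in advance, since the groups did not overlap. It was fixed as well with other pseudocounts, minimum means and variance settings, in the 5 NTG libraries alone and in the 8 numbered libraries without a block. The 55 genes also kept it with equal totals, quantile normalization, the replicate block, edgeR and DESeq2, where they were tested. Their number did not hold. It was 57 with a pseudocount of 0.1, 72 with 5, 47 with a mean of at least 50, 61 with equal totals, 57 with robust variances and 68 by edgeR (59 higher). It moved to 20 with any mean above 0, 85 with quantile normalization, 19 without a trend (100% higher), 128 in the 5 NTG libraries alone (96.1% higher, 41 of them among the 55) and 721 by DESeq2 (60.1% higher, all 55 among them), against 83.6% higher in the fit reported. Leaving out a library gave 2 to 22 genes (50.0% to 100% higher). The cause of these moves was not tested, beyond the fewer libraries of the last. Called list members numbered 8, and 3 with any mean above 0, 21 in the NTG libraries alone, 5 without a trend, 79 by DESeq2 and 0 to 5 with a library left out. The interaction gave 5 genes by DESeq2 and 0 to 2 with a library left out. Raised genes below the median count in the NTG libraries of the other experiment made up 69.6%, and 51.5% with quantile normalization, 89.5% without a trend and 50.0% to 85.0% with a library left out. CG-rich transcript starts made up 44.4% of raised genes, and 45.5% to 100% with a library left out.

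A replicate block by column number, possible for 8 numbered libraries, gave 1161 genes (42.2% higher, all 55 among them) and 134 called list members. The same 8 libraries without the block, a fit added after seeing the data, gave 59 genes (91.5% higher). Same-numbered libraries had correlations of their deviations from group means of -0.02 to 0.30, with 6 of 7 above 0.1, and 6 of 8 libraries correlated best with their own number. The 2 DMSO libraries with NTG deviate from their mean in opposite directions. Their correlations therefore mirror each other (0.303 and -0.303 with library 1 of DMSO with siMCRS1), and these counts are not independent. The pair with number 2 had -0.02. The correlations are a hint from the data, and the labels do not say that a number marks a shared day or culture. Of 513 pairs of a named gene and an alternative, 317 kept direction and threshold, 196 lost the threshold and 0 reversed. With a library left out, and under the other settings named above as fixing the direction, these genes could not reverse.

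The depth limits what can be said of genes near 0 in DMSO, of which CDH19 had 2 reads in all. With 2 DMSO libraries the spread rests mainly on the other groups, and the direct effect of EZH2 inhibition cannot be told apart from later effects over the days of treatment.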
